A study of Mus musculus with 4 samples.

Results

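The 10 genes described here are members of the Notch pathway that vessel cells use: the receptors Notch1, Notch2, Notch3 and Notch4, the ligands Jag1 and Dll4, and the target genes Hes1, Hey1, Hey2 and Heyl. They were chosen by name from the 31053 genes of the count matrices, of which 20412 had at least 1 UMI (unique molecular identifier, 1 counted RNA molecule) in the cells kept. Single cells were taken from carotid arteries of male C57BL/6 mice, operated at 11 weeks of age, before wire injury (day 0) and 3, 7 and 14 days after it. Wire injury strips the endothelium and stretches the wall, and the vessel then forms new tissue on its inner side. Each day is 1 droplet library of the 3′ ends of RNA, made from several pooled vessels, and vessels with a thrombus had been left out, so 4 libraries stand for 4 days with no replicate. No test between days could be made for this reason, and every interval below is a 95% interval for counting error only.

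Notch receptors are bound by ligands on the surface of neighbouring cells. Binding exposes the receptor to cleavage by ADAM10 and then by gamma-secretase, and the freed intracellular part joins RBPJ and Mastermind proteins in the nucleus to switch on target genes, among them the repressors of the Hes and Hey families. In arteries Notch3 is known as a receptor of smooth muscle cells and pericytes, Notch1 and Notch4 with the ligand Dll4 as components of arterial endothelium, and Jag1 as a ligand that endothelial and smooth muscle cells present to each other.

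The promoters of 4 members are printed because their genes carry the results below: the target Hey2, and 3 members each found mainly in 1 or 2 cell classes. They are the 250 bases before the gene start in RefSeq on GRCm38.p6, read 5′ to 3′ on the gene's own strand. A window was given for 7 of the 10 members, and Hes1, Hey1 and Heyl are named only. The letters GTGGGAA, the sequence that RBPJ is known to bind, were searched on both strands in these bases and the 50 that follow, 300 bases in all. They were found in Hey2 alone of the 7, and 6.38% of the 32851 windows of the same length hold them. Capitals mark the matches.

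Hey2, chr10:30842784-30843033, minus strand: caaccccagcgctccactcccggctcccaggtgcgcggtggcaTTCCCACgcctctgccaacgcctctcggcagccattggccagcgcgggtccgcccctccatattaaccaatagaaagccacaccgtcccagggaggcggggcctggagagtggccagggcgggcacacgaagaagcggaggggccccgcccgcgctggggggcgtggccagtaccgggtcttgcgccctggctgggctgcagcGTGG

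Notch3, chr17:32166891-32167140, minus strand: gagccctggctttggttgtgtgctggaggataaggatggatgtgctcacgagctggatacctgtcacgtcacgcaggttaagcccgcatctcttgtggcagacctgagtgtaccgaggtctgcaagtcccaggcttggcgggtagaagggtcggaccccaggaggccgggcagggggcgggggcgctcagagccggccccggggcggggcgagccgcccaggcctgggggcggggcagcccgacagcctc

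Notch4, chr17:34564045-34564294, plus strand: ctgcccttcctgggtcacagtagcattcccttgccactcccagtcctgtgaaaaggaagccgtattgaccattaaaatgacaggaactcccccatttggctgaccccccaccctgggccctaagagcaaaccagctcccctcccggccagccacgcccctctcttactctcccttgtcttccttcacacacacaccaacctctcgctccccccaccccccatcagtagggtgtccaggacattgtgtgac

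Dll4, chr2:119325534-119325783, plus strand: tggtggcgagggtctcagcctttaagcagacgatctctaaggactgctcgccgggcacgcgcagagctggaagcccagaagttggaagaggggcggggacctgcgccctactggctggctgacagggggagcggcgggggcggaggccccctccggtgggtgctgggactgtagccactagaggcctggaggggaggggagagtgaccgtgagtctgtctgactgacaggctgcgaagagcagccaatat

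Of the 2 matches in Hey2, the first is on the opposite strand, with its first printed base 207 bases before the start. The second begins 4 bases before the start, so that 4 of its letters are printed here and 3 lie beyond. A match of letters is a description of the sequence and no binding was measured.

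The libraries held 333, 1689, 3001 and 1138 barcodes and 2672722, 18989081, 27973418 and 13329564 UMIs at days 0, 3, 7 and 14. After filtering, 5621 cells were kept, and 10 classes were named by their marker genes, with 940 cells (16.7%) left unnamed. The fibroblast-like class had 233, 158, 107 and 499 cells over the 4 days, the smooth muscle-like class 22, 105, 63 and 78, the endothelial-like class 7, 40, 56 and 24, and the monocyte/macrophage-like class 4, 483, 871 and 160. All 10 fibroblast markers and all 10 smooth muscle markers were at 50 CPM or more in their own class at every day, and 7, 8, 9 and 10 of 10 endothelial markers were. Levels are in CPM, the UMIs of a gene scaled by all UMIs of its class in that library.

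The libraries were not separate in their barcodes. Day 0 and day 3 shared 152 barcodes, day 7 and day 14 shared 64, day 3 and day 7 shared 1, and the other pairs shared none. For the day 0 and day 3 pair, 1 copy always had less than 20% of the UMIs of the other, 48 times the day 0 copy and 104 times the day 3 copy, with a median of 0.915% and 4.66% of the deeper copy. Where both copies had a class name, all 109 pairs had the same name. For the day 7 and day 14 pair the shallower copy lay in day 14 for 62 of the 64, and 13 of 15 named pairs agreed.

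These shallower copies were 93 of the 158 fibroblast-like cells at day 3 and 10 of the 22 smooth muscle-like cells at day 0. They held 2.35% and 7.16% of the UMIs of those classes, because they are shallow. Values below are sums of UMIs, and none of the 11 main and 190 other member values moved beyond its counting interval when the copies were left out. The remaining 65 fibroblast-like cells of day 3 were few and deep, with a median of 46163 UMIs. Of that class's UMIs at day 3, 90.7% came from 42 cells of a sub-cluster that mixed more than 1 vascular class. Monocyte/macrophage markers summed to 477 CPM in fibroblast-like cells at day 3, against 30.1 at day 0, 349 at day 7 and 186 at day 14. Their part in the day 3 values was not tested.

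**Figure D1:**
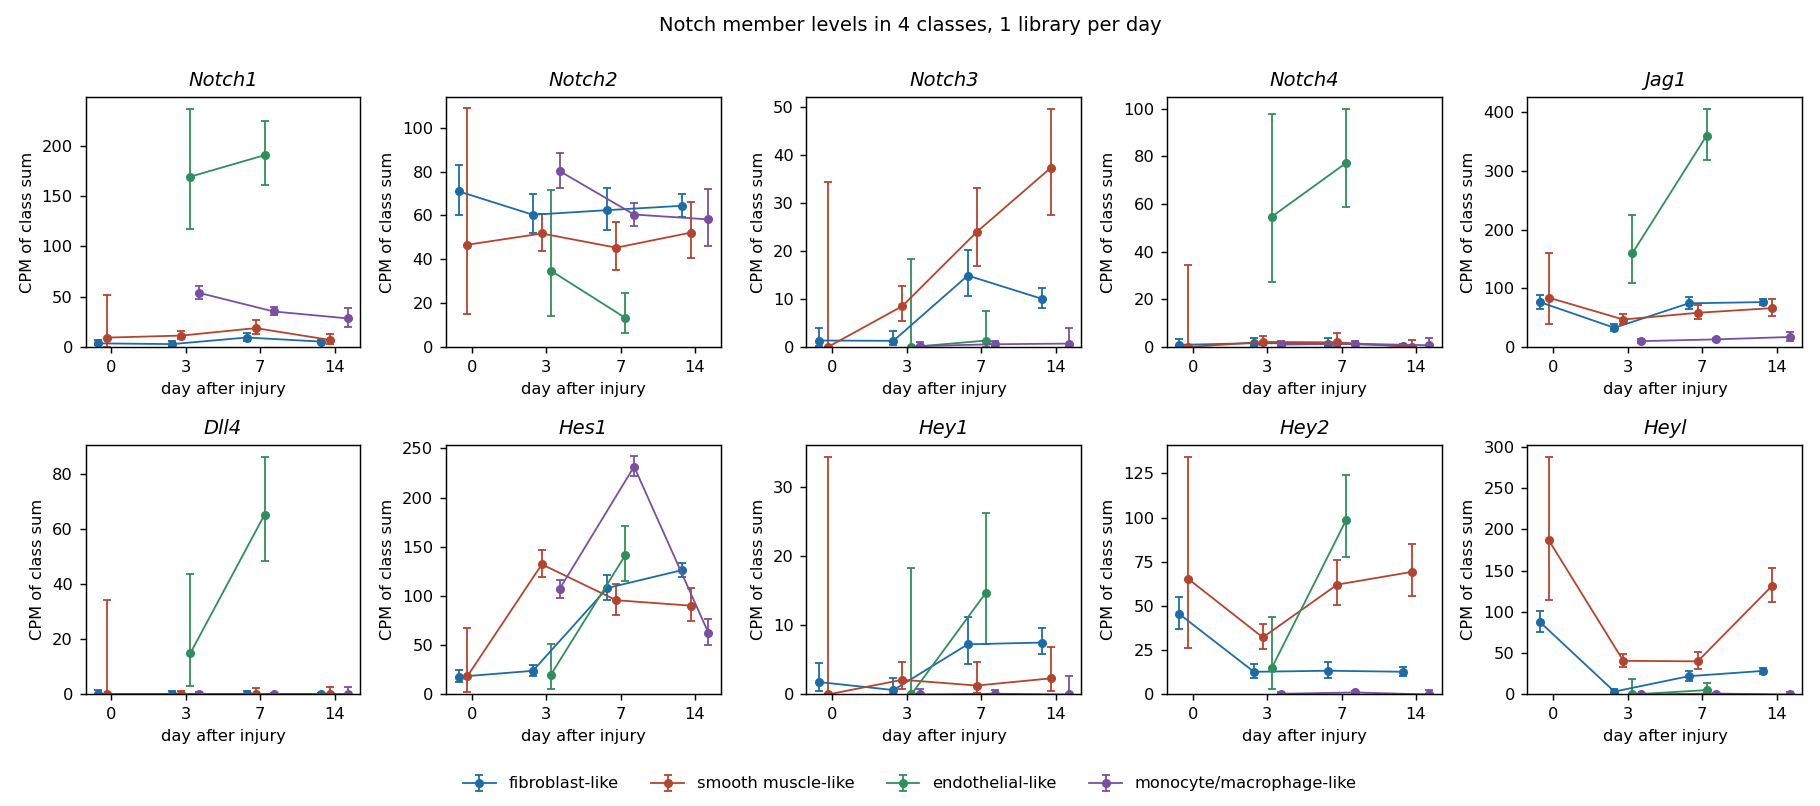
Level of each member, in CPM of the class sum (linear axis from 0, its own scale in each panel), against the day after injury, for 4 cell classes; bars are 95% Poisson intervals for counting error, and sums under 100000 UMIs are left out. Notch1, Notch4, Jag1 and Dll4 are highest in endothelial-like cells at days 3 and 7, the only days with that class shown. Notch3 in smooth muscle-like cells is at 8.51 CPM on day 3 and 37.4 CPM on day 14. Hes1 is highest, at 232 CPM, in monocyte/macrophage-like cells at day 7.

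The receptors were divided between classes. Notch1 was highest in endothelial-like cells, though beyond counting error over the next class only at day 7, with 169 CPM (117 to 236, 34 UMIs) at day 3, 191 CPM (161 to 224, 143 UMIs) at day 7 and 112 CPM (41.0 to 243, only 6 UMIs) in the day 14 library. At day 3 it was 1.58 times the T cell-like level (0.970 to 2.55). Orders of classes are over sums of at least 100000 UMIs, a size the day 14 endothelial-like sum does not reach. No Notch1 UMI was counted in the 7 endothelial-like cells of day 0, whose 15595 UMIs allow up to 192 CPM at a floor of 3 UMIs. At day 7 the Notch1 level in endothelial-like cells was 20.2 times that in fibroblast-like cells (13.2 to 32.0) and 10.2 times that in smooth muscle-like cells (6.78 to 15.7). As a mean of each cell's CPM the first of these was 6.45.

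Next in the order of Notch1 at day 7 came plasmacytoid dendritic-like cells at 99.9 CPM (11 UMIs), T cell-like cells at 79.3 CPM (193 UMIs) and neutrophil-like cells at 59.3 CPM (22 UMIs). These 3 neighbours did not differ beyond counting error. Fibroblast-like cells were lowest at 9.43 CPM (26 UMIs). T cell-like cells had 91.0, 107, 79.3 and 56.5 CPM of Notch1 over the 4 days, the last being 0.527 of the day 3 level (0.323 to 0.854). Within the cluster led by Xcl1 and Ccl5, which held 64.2% of the class's UMIs at day 3 and 42.2% at day 14, this ratio was 0.811 (0.440 to 1.48). The cluster led by Icos and Trac held 32.4% and 39.5% at these days. Notch1 there was at 80.8 CPM (10 UMIs) at day 3, 91.8 CPM (91 UMIs) at day 7 and 34.7 CPM (8 UMIs) at day 14. Its ratio of day 14 to day 7 was 0.377 (0.158 to 0.776).

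Notch2 was the receptor with the broadest presence. In fibroblast-like cells it was at 71.0, 60.3, 62.4 and 64.4 CPM at days 0, 3, 7 and 14, from 158, 188, 172 and 566 UMIs, and no interval of a ratio to day 0 left out 1. With the clusters led by Tnfrsf11b and by Wisp2, left unnamed, put into this class, day 7 was 0.724 of day 0 (0.590 to 0.891). Smooth muscle-like cells had 46.6, 51.8, 45.3 and 52.1 CPM, again with no difference beyond counting error. The highest Notch2 level was in neutrophil-like cells, with 284 CPM (245 to 327, 191 UMIs) at day 3 and 121 CPM (88.5 to 162, 45 UMIs) at day 7. Neutrophil-like cells thus had 3.54 times the monocyte/macrophage-like level in the earlier library (2.96 to 4.21) and 2.01 times in the later one (1.45 to 2.73). At day 7 dendritic-like, fibroblast-like and monocyte/macrophage-like cells lay together at 62.7, 62.4 and 60.4 CPM, and endothelial-like cells were lowest at 13.3 CPM (10 UMIs).

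Notch3, the smooth muscle receptor, was found mainly in smooth muscle-like and fibroblast-like cells. At day 14 smooth muscle-like cells had 37.4 CPM (27.5 to 49.5, 48 UMIs) and fibroblast-like cells 10.0 CPM (8.03 to 12.3, 88 UMIs), a ratio of 3.73 (2.57 to 5.36). Without doublet removal this ratio was 8.58. At day 7 the levels were 23.9 CPM (37 UMIs) and 14.9 CPM (41 UMIs), and the interval of the ratio, 1.61, began at 1.00. Monocyte/macrophage-like cells had 1, 5 and 1 Notch3 UMIs at days 3, 7 and 14, which is at most 0.710 CPM, and neutrophil-like and NK cell-like cells had none. Plasmacytoid dendritic-like cells had 18.2 CPM at day 7, from 2 UMIs.

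Notch4, an endothelial receptor, had 145 UMIs in all cells together. Endothelial-like cells held 77.3 CPM (58.7 to 99.9, 58 UMIs in 18 cells) at day 7, 53.3 times the fibroblast-like level (19.7 to 202). At day 3 it was at 54.7 CPM (11 UMIs), of which 81.8% came from 1 cell, and at day 14 at 37.3 CPM (2 UMIs). Fibroblast-like cells stayed between 0.569 and 1.60 CPM on all 4 days. Dendritic-like cells stood first among the sums of at least 100000 UMIs at day 14, with 16.7 CPM from 6 UMIs.

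**Figure D2:**
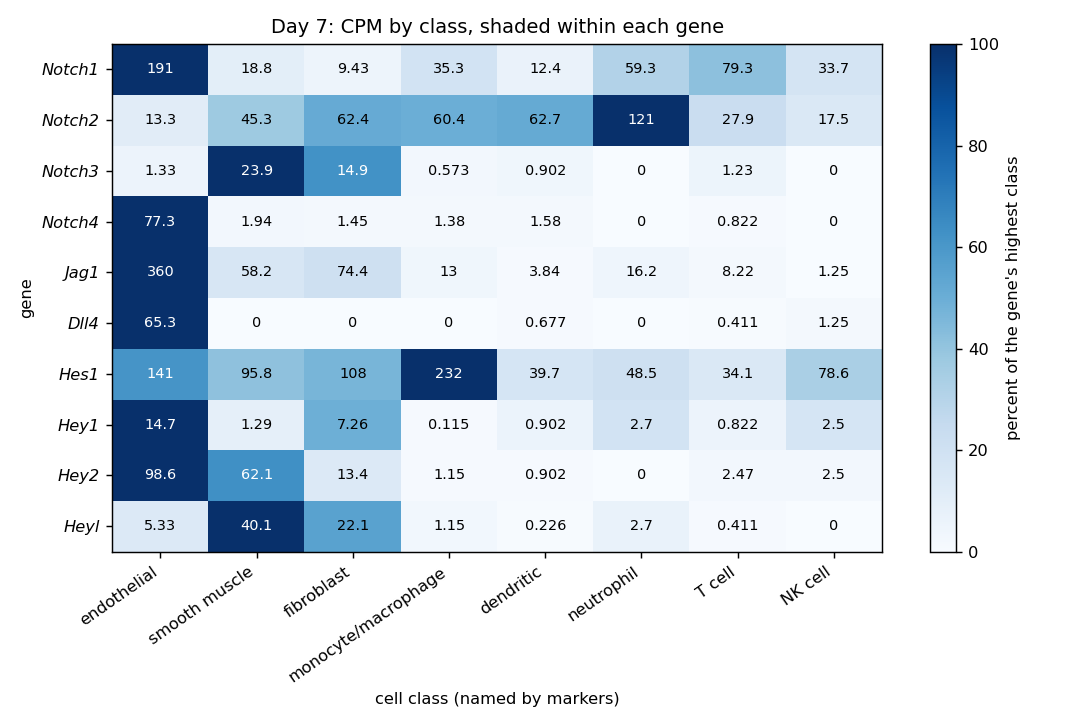
CPM of each member in 8 classes at day 7 (printed), with the shade giving each value as a percent of the same gene's highest class, so that shades compare classes within a gene and not genes with each other. Endothelial-like cells are the highest class for 6 members, smooth muscle-like cells for Notch3 and Heyl, neutrophil-like cells for Notch2 and monocyte/macrophage-like cells for Hes1.

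Of the ligands, Jag1 was shared by the vascular classes. Endothelial-like cells were highest at day 7 with 360 CPM (318 to 405, 270 UMIs), 4.84 times the fibroblast-like level (4.02 to 5.83), although 35.2% of these UMIs came from 1 cell. Without cells over 40000 UMIs the level was 318 CPM (80 UMIs). At day 14 endothelial-like cells had 55.9 CPM of Jag1 from 3 UMIs, 0.731 of the fibroblast-like level (0.150 to 2.15). Fibroblast-like and smooth muscle-like cells had 74.4 and 58.2 CPM at day 7, which did not differ beyond counting error. Neutrophil-like cells, the highest immune class, had 16.2 CPM and dendritic-like cells 3.84 CPM, so the vascular classes lay above all the immune classes.

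Dll4, the ligand of arterial endothelium, was counted 64 times in all. Endothelial-like cells of day 7 held 49 of these UMIs, in 14 cells, which is 65.3 CPM (48.3 to 86.3). No Dll4 UMI was found in fibroblast-like, smooth muscle-like or monocyte/macrophage-like cells on any day. The endothelial-like level at day 7 was therefore at least 60.0 times the fibroblast-like one, taking the same floor of 3 UMIs for that class. The lower limit of the counting interval of this ratio, which uses no floor, was 47.0. At day 3 Dll4 in endothelial-like cells was at 14.9 CPM (3 UMIs) and at day 14 at 18.6 CPM (1 UMI).

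Of the targets, Heyl was highest in smooth muscle-like cells and next in fibroblast-like cells. At day 14 smooth muscle-like cells had 132 CPM (112 to 153, 169 UMIs) and fibroblast-like cells 28.6 CPM (25.1 to 32.3, 251 UMIs), a ratio of 4.61 (3.77 to 5.62). Before injury this ratio stood at 2.13 (1.27 to 3.38), on day 3 at 11.6 (6.22 to 23.8) and on day 7 at 1.81 (1.25 to 2.62). The clusters led by Tnfrsf11b and Dio2 and by Wisp2 and Eln had fibroblast markers but had been left unnamed. With both put into the fibroblast-like class the day 7 ratio of Heyl was 0.955 (0.706 to 1.28). Smooth muscle-like cells were thus higher at days 3 and 14 under either choice and not at day 7. These clusters held no cells of day 0, so the choice leaves that ratio as it is. The day 0 ratio rests on 20 smooth muscle-like UMIs. As a mean over cells without the shallower copies, Heyl at day 0 was at 106 CPM in smooth muscle-like and 84.0 CPM in fibroblast-like cells. No Heyl UMI was counted in T cell-like, dendritic-like or monocyte/macrophage-like cells at day 14.

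Hey2 was shared between smooth muscle-like and endothelial-like cells. At day 7 it was at 98.6 CPM (77.4 to 124, 74 UMIs) in endothelial-like cells, 62.1 CPM (50.3 to 75.8, 96 UMIs) in smooth muscle-like cells and 13.4 CPM (9.45 to 18.5, 37 UMIs) in fibroblast-like cells, and each step in this order was larger than counting error. At day 14 the smooth muscle-like level was 5.39 times the fibroblast-like one (4.03 to 7.18). Hey1 was sparse, with 144 UMIs in all, 66 of them in fibroblast-like cells of day 14. It was at 14.7 CPM (11 UMIs in 4 cells) in endothelial-like and 7.26 CPM (20 UMIs) in fibroblast-like cells at day 7, which did not differ beyond counting error.

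Hes1 had the most UMIs of the 10 members, 6116, and no single class held it. The order at day 7 was monocyte/macrophage-like at 232 CPM (222 to 242, 2020 UMIs), endothelial-like at 141 CPM (116 to 171, 106 UMIs), fibroblast-like at 108 CPM (96.2 to 121, 298 UMIs) and smooth muscle-like at 95.8 CPM (80.9 to 112, 148 UMIs). The last 2 did not differ beyond counting error. At day 14 fibroblast-like cells stood first among the sums of at least 100000 UMIs, at 126 CPM, above smooth muscle-like cells at 90.3 and monocyte/macrophage-like cells at 62.4 CPM, and T cell-like cells had 15.4 CPM. Smaller sums of that day were higher still, with 218 CPM in NK cell-like cells (129 to 345, 18 UMIs) and 285 CPM in B cell-like cells (181 to 428, 23 UMIs).

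Between days, fibroblast-like cells had higher Hes1 and lower Heyl and Hey2 after injury than before it. Hes1 was at 18.0 CPM (12.8 to 24.5, 40 UMIs) at day 0, 24.1 CPM (18.9 to 30.2, 75 UMIs) at day 3, 108 CPM at day 7 and 126 CPM (119 to 134, 1110 UMIs) at day 14. Against the uninjured library this is 1.34-fold on day 3 (0.900 to 2.02), 6.01-fold on day 7 (4.31 to 8.59) and 7.02-fold on day 14 (5.12 to 9.89). Days 7 and 14 thus lay apart from days 0 and 3. The day 3 ratio became 1.84 (1.29 to 2.68) with the clusters led by Tnfrsf11b and by Wisp2 put into the class. With every cell thinned to 1000 UMIs, a Hes1 UMI was found in 3 of 208 fibroblast-like cells (1.44%) at day 0 and in 36 of 479 (7.52%) at day 14. A second random draw gave 4 and 47 of the same numbers of cells (1.92% and 9.81%). Cells under 1000 UMIs, 25 and 20 of them, were left out. In T cell-like cells of day 14 it was found in 1 of 101 cells, and the unthinned shares of fibroblast-like cells were 8.15% and 44.1%, at median depths of 8126 and 18463 UMIs against 4966.5 in T cell-like cells.

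Immediate early genes, which cells switch on within minutes of stress or tissue digestion, were also higher in this class at the later days. The 10 listed genes, Fos, Jun and Egr1 among them, summed to 3447, 3692, 7534 and 9404 CPM in fibroblast-like cells over the 4 days. The smooth muscle-like sums were 11189, 6882, 6440 and 9291 CPM, and Hes1 there was at 18.6 CPM (2 UMIs), 132, 95.8 and 90.3 CPM. Their part in the Hes1 values was not tested.

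Heyl in fibroblast-like cells was at 87.6 CPM (75.8 to 101, 195 UMIs) at day 0, 3.53 CPM (1.76 to 6.31, 11 UMIs) at day 3, 22.1 CPM (16.9 to 28.4, 61 UMIs) at day 7 and 28.6 CPM at day 14. Every day after injury lay below day 0 with no overlap of the intervals, at 0.0403, 0.253 and 0.326 of its level, or at 0.0850, 0.479 and 0.327 with the clusters led by Tnfrsf11b and by Wisp2 put into the class. Without the shallower copies of shared barcodes day 3 had 2.30 CPM (7 UMIs). Hey2 was at 45.4 CPM (37.0 to 55.2, 101 UMIs) at day 0 and then at 12.8, 13.4 and 12.9 CPM, from 40, 37 and 113 UMIs. Its 3 levels after injury were 0.283, 0.296 and 0.283 of that of day 0. With the same clusters put in these were 0.390, 0.481 and 0.280, all below 1 by more than counting error, and day 14 was then 0.581 of day 7 (0.441 to 0.767).

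The day 3 values rest on the deep cells described above, so 2 smaller sets of that day's cells are given beside them, both without shallower copies. In the 28 cells of at most 40000 UMIs, Hey2 was at 40.2 CPM (20.0 to 71.9, 11 UMIs), Heyl at 11.0 CPM (2.26 to 32.0, 3 UMIs) and Jag1 at 51.1 CPM (27.9 to 85.8, 14 UMIs). In the 23 cells outside the mixed sub-clusters, Hey2 was at 18.5 CPM (5.03 to 47.3, 4 UMIs), Heyl at 13.9 CPM (2.86 to 40.5, 3 UMIs) and Jag1 at 102 CPM (63.7 to 154, 22 UMIs). In both sets the intervals of Hey2 and Jag1 reach the day 0 level and that of Heyl does not.

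Among receptors and ligands of this class, Notch3 was at 1.35 CPM (3 UMIs) at day 0 and 1.28 CPM (4 UMIs) at day 3, then at 14.9 CPM at day 7 and 10.0 CPM at day 14. These are 11.0-fold (3.52 to 55.7) and 7.42-fold (2.46 to 36.7) the uninjured level. Hey1 went from 1.80 CPM (4 UMIs) to 7.26 and 7.51 CPM at days 7 and 14, 4.04 (1.35 to 16.2) and 4.18 (1.56 to 15.8) times day 0. At day 14, 61 of the 88 Notch3 UMIs and 41 of the 66 Hey1 UMIs lay in the cluster led by C1qtnf3 and Col2a1. That cluster had no cells of day 0. No cluster with cells of day 0 had enough UMIs for a ratio of Notch3 or Hey1 to day 0, so a rise within a cluster is not shown. Jag1 was at 76.4, 32.7, 74.4 and 76.4 CPM, so that in the sums only day 3 stood apart, at 0.428 of day 0 (0.332 to 0.551). Without mixed sub-clusters this ratio was 1.13. As a mean over cells without the shallower copies, Jag1 was at 58.0 CPM at day 0 and 50.1 CPM at day 3. Notch1 was at 3.60, 2.89, 9.43 and 5.35 CPM, and only day 7 left day 0 beyond counting error, at 2.62 (1.15 to 6.70). With the 2 clusters put in, that ratio of Notch1 was 1.97 (0.891 to 4.93), under 2-fold and no longer beyond counting error.

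Counted as at least 2-fold and over genes with 20 or more UMIs in the 2 sums, no member was higher and Heyl, Hey2 and Jag1 were lower among the 5 members that could be compared at day 3. Over all 10416 genes compared, 9.08% were higher and 12.5% lower, and the median log2 ratio was -1.22 for the members and -0.13 for all genes. Some of these day 3 calls depended on the processing. The Hes1 ratio was 2.11 without mixed sub-clusters and 2.37 as a mean over cells without the shallower copies. The Hey2 ratio was 1.00 as a mean over cells with the shallower copies kept. Without those copies the mean of Hey2 was 44.7 CPM at day 0 and 27.2 CPM at day 3. The Jag1 ratio was 1.13 without mixed sub-clusters. At day 7, Notch3, Hes1, Hey1 and Notch1 were higher and Heyl and Hey2 lower among 8 members, against 10.7% higher and 8.84% lower over all genes. At day 14, Notch3, Hes1 and Hey1 were higher and the same pair lower among 8 members, against 9.13% and 4.57%. Notch4 and Dll4 had too few UMIs in this class at every day, and the 3 comparisons share the day 0 library.

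**Figure D3:**
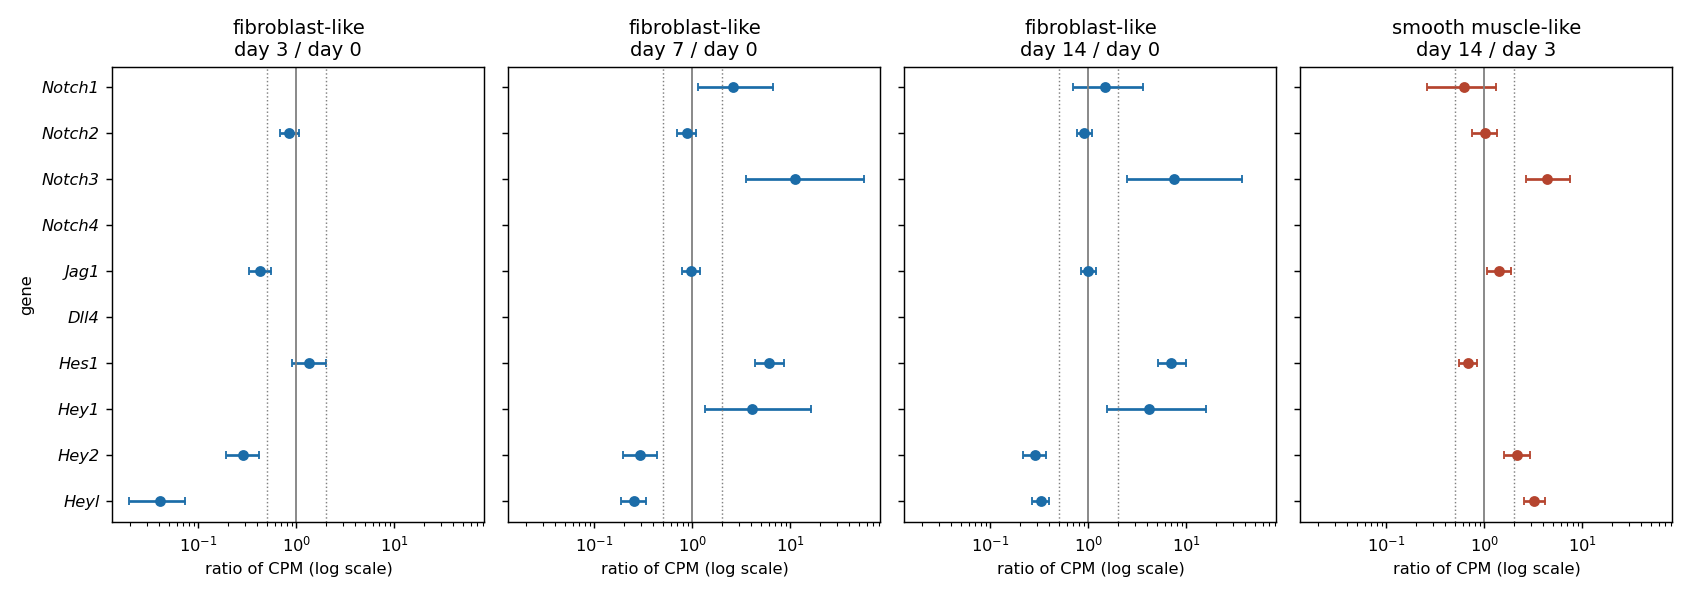
Ratio of CPM between 2 days (log axis) for each member with at least 20 UMIs in the 2 sums, in fibroblast-like cells against day 0 and in smooth muscle-like cells for day 14 against day 3; bars are 95% counting intervals, the solid line is 1 and the dotted lines are 2-fold. In fibroblast-like cells Hes1 lies at 6.01 and 7.02 on days 7 and 14 while Heyl and Hey2 lie between 0.0403 and 0.326, and in smooth muscle-like cells Notch3, Heyl and Hey2 lie above 2.

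The fibroblast-like class was made of different clusters at different days. The cluster led by Rbp4 and Fmo2 held 73.1% of the class's UMIs at day 0 and 8.55% at day 14, the cluster led by Saa3 and Prg4 held 86.1% at day 3 and 38.4% at day 7, and the cluster led by C1qtnf3 and Col2a1 held 32.1% at day 7 and 59.4% at day 14. The clusters were made from the same cells, so differences between them are a description.

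Within 3 clusters Hes1 was likewise higher at the later day. In the Rbp4 and Fmo2 cluster it went from 20.9 CPM (34 UMIs) at day 0 to 104 CPM (78 UMIs) at day 14, a ratio of 4.97 (3.28 to 7.66). In the cluster led by Igfbp5 and Sema3c it went from 9.32 CPM (4 UMIs) to 59.4 CPM (54 UMIs), a ratio of 6.38 (2.35 to 24.2). In the Saa3 and Prg4 cluster it went from 23.5 CPM (63 UMIs) at day 3 to 84.1 CPM (89 UMIs) at day 7, a ratio of 3.59 (2.57 to 5.03). The cluster led by Clec3b and Smoc2 had no Hes1 UMI at day 0 and 52.3 CPM (24 UMIs) at day 14. Its ratio of day 14 to day 3 was 1.28 (0.508 to 3.82). Between days 7 and 14 the ratio was 0.792 (0.615 to 1.03) in the Col4a5 and Rgs5 cluster. It was 1.09 (0.890 to 1.35) in the C1qtnf3 and Col2a1 cluster.

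For Heyl and Hey2 the ratios within a cluster differed from those of the whole class. Within the Rbp4 and Fmo2 cluster Heyl was at 117 CPM (190 UMIs) at day 0 and 78.5 CPM (59 UMIs) at day 14, a ratio of 0.672 (0.493 to 0.905), against 0.326 in the whole class. Hey2 was at 52.9 CPM (86 UMIs) and 46.6 CPM (35 UMIs), a ratio of 0.881 (0.577 to 1.32), against 0.283 in the whole class. Of the 195 Heyl UMIs of fibroblast-like cells at day 0, 190 lay in this cluster, and the C1qtnf3 and Col2a1 cluster of day 14 had 18.6 CPM of Heyl (97 UMIs) and 4.21 CPM of Hey2 (22 UMIs). Between days 7 and 14 the ratio inside that last cluster was 0.609 for Heyl (0.394 to 0.971) and 0.233 for Hey2 (0.117 to 0.475), against 1.29 and 0.958 in the whole class.

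**Figure D4:**
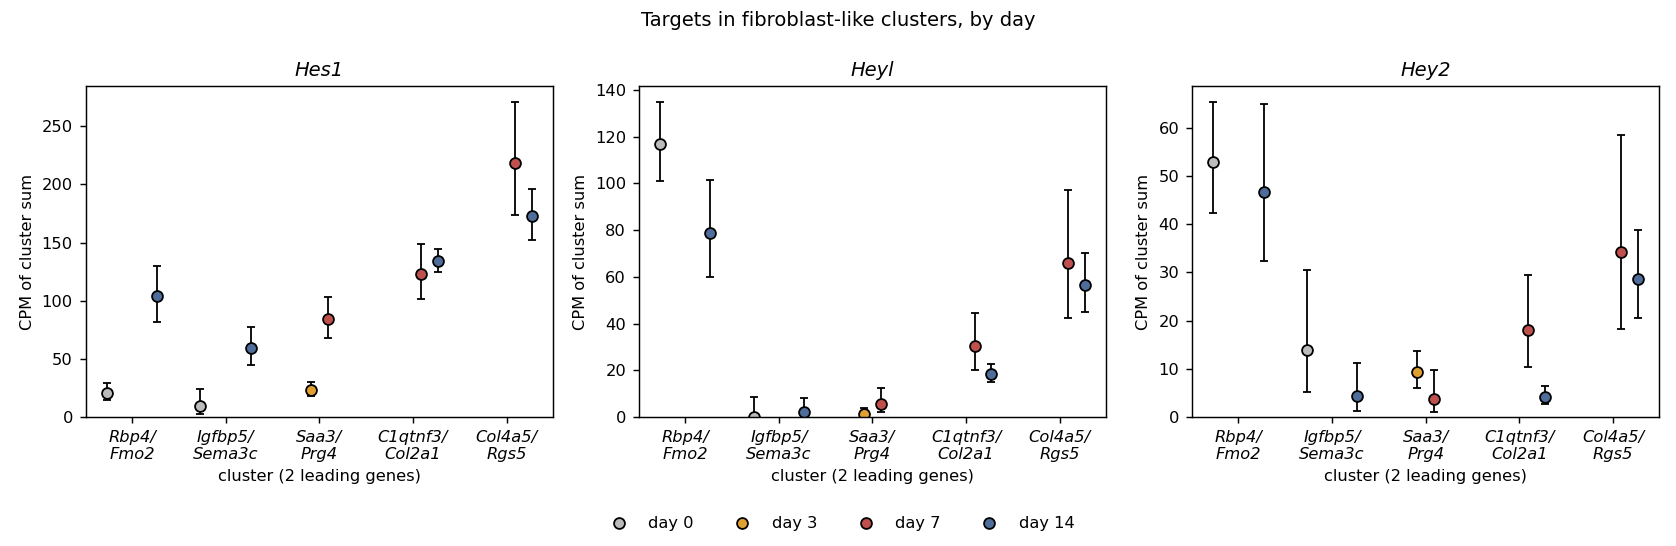
CPM of Hes1, Heyl and Hey2 (linear axes from 0) in 5 fibroblast-like clusters named by their 2 leading genes, for each day with at least 10 cells in the cluster; bars are 95% Poisson intervals. Hes1 is higher at the later day in the clusters led by Rbp4, Igfbp5 and Saa3, while Heyl and Hey2 are highest in the Rbp4 cluster at both of its days.

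In smooth muscle-like cells the receptor Notch3 and the targets Heyl and Hey2 were higher at day 14 than at day 3. Notch3 was at 8.51 CPM (5.45 to 12.7, 24 UMIs) at day 3, 23.9 CPM (16.9 to 33.0, 37 UMIs) at day 7 and 37.4 CPM at day 14, and no UMI was counted in the 107248 UMIs of day 0, which allows up to 28.0 CPM at a floor of 3 UMIs. The ratio of day 14 to day 3 was 4.39 (2.64 to 7.49), or 9.14 without doublet removal and 8.51 as a mean of each cell's CPM, while days 7 and 14 did not differ beyond counting error. Heyl was at 186 CPM (114 to 288, 20 UMIs in 5 cells) at day 0, 40.8 CPM (33.7 to 48.9, 115 UMIs) at day 3, 40.1 CPM (30.8 to 51.4, 62 UMIs) at day 7 and 132 CPM at day 14. The ratio of day 14 to day 3 was 3.23 (2.53 to 4.12), or 2.07 as a mean over cells. Day 0 rests on its 5 cells with Heyl. As a mean over cells, days 3 and 7 were both at 1.01 of day 0 with the shallower copies of shared barcodes kept. Without those copies the means were 106, 51.3 and 58.7 CPM at days 0, 3 and 7. With so few cells at day 0, no order against it is read from these values.

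Hey2 was at 65.3 CPM (7 UMIs), 32.3 CPM (91 UMIs), 62.1 CPM (96 UMIs) and 69.3 CPM (89 UMIs), and day 14 was 2.15 times day 3 (1.58 to 2.91). Jag1 was at 83.9 CPM (9 UMIs), 46.8 CPM (132 UMIs), 58.2 CPM (90 UMIs) and 66.1 CPM (85 UMIs), with a ratio of 1.41 for the same days (1.06 to 1.87). Hes1 was lower at day 14, at 0.683 of its day 3 level (0.549 to 0.843). Notch2 had a ratio of 1.01 (0.743 to 1.35).

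Cells over 40000 UMIs held 67.0% of this class's UMIs at day 3, 59.0% at day 7 and 22.4% in the last library, and sub-clusters mixed with another class held part of them. Without these deep cells, Notch3 was at 10.7 CPM (10 UMIs) at day 3 and 44.2 CPM (44 UMIs) at day 14, and Heyl at 60.1 CPM (56 UMIs) and 132 CPM (132 UMIs). Hey2 was then at 48.3 CPM (35.2 to 64.6, 45 UMIs) and 67.2 CPM (52.1 to 85.4, 67 UMIs), whose intervals overlap.

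Of the 7 members compared between these days, Notch3, Heyl and Hey2 were at least 2-fold higher and none was at least 2-fold lower, against 5.79% higher and 10.2% lower of 10041 genes. The median log2 ratio was 0.50 for the members and -0.06 for all genes. Within the cluster led by Myh11 and Itga8, which held 94.3% of the UMIs of the class at day 3 and 99.6% at day 14, the ratios were 4.07 for Notch3, 3.12 for Heyl, 2.15 for Hey2 and 0.649 for Hes1. At day 7 this cluster held 67.2%, and 7 cells of the cluster led by Hist1h2ap and Timp1 held 32.6%. In the Myh11 and Itga8 cluster of day 7, Notch3 was at 27.9 CPM, Heyl at 54.8 CPM and Hey2 at 75.1 CPM. Its Hes1 ratio of day 7 to day 3 was 0.543 (0.419 to 0.694). The summed smooth muscle markers, contractile genes for the most part, were at 38005, 22838, 17178 and 42225 CPM over the 4 days, with Myh11 at 4979, 1342, 1481 and 4016 CPM. The pericyte list summed to 699, 417, 488 and 708 CPM, with Vtn and Higd1b at 0 at days 0, 3 and 14 and Rgs5 at 93.2, 15.6, 124 and 239 CPM. Fibroblast markers summed to 4205, 9417, 19125 and 9723 CPM in this class. The part of these lists in the Notch3 and Heyl values was not tested.

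In endothelial-like cells 4 members were at least 2-fold higher at day 7 than at day 3 among the 6 compared, and none was lower, against 16.5% higher and 8.08% lower of 6399 genes. Hes1 went from 19.9 CPM (4 UMIs) to 141 CPM, a ratio of 7.10 (2.69 to 26.5), and Hey2 from 14.9 CPM (3 UMIs) to 98.6 CPM, a ratio of 6.61 (2.17 to 32.8). The ratio was 4.38 for Dll4 (1.41 to 21.9) and 2.26 for Jag1 (1.56 to 3.37). The receptors Notch1 and Notch4 had ratios of 1.13 (0.771 to 1.69) and 1.41 (0.734 to 2.98), so no difference was detectable for them at this depth. The day 3 sum held 201021 UMIs, 69.7% of them in 2 cells, and at day 7 6 cells held 66.5% of 750399 UMIs.

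As a mean of each cell's CPM, Jag1 was at 42.6 at day 3 and 311 at day 7, and Notch4 at 4.25 and 66.5, so both ratios were larger than from the sums. Without the 2 cells over 40000 UMIs the day 3 sum held 60837 UMIs, with 1 UMI each of Jag1, Dll4 and Hey2, 2 of Hes1, 9 of Notch1 and 0 of Notch4. The sub-cluster that held most endothelial-like cells was itself mixed, with 121 endothelial-like and 52 smooth muscle-like cells, and its part in these values was not tested.

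Without the cells over 40000 UMIs, the day 7 endothelial-like levels were 111 CPM for Hes1 (28 UMIs), 147 CPM for Hey2 (37 UMIs), 95.3 CPM for Dll4 (24 UMIs), 270 CPM for Notch1 (68 UMIs) and 119 CPM for Notch4 (30 UMIs). The list of arterial endothelial genes, which includes Dll4 and Hey1, summed to 428 CPM at day 3 and 1267 CPM at day 7. Among its other genes, the gap junction gene Gja4 was at 89.5 and 417 CPM and the transcription factor gene Sox17 at 44.8 and 153 CPM. Day 14 rests on 53654 UMIs of 24 cells, 6 of them shallower copies of day 7 barcodes, and monocyte/macrophage markers summed to 3989 CPM there, with Lyz2 at 1211 CPM. Hes1 was at 186 CPM (89.4 to 343, 10 UMIs in 3 cells) in that sum, and Hey2 and Heyl were not counted.

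In monocyte/macrophage-like cells Hes1 was at 107 CPM (98.4 to 117, 539 UMIs) at day 3, 232 CPM at day 7 and 62.4 CPM (50.1 to 76.9, 88 UMIs) at day 14. Day 7 was 2.16 times day 3 (1.96 to 2.38) and day 14 was 0.582 of day 3 (0.459 to 0.730). Notch1 was at 53.7, 35.3 and 28.4 CPM, from 270, 308 and 40 UMIs, and Notch2 at 80.2, 60.4 and 58.2 CPM, from 403, 527 and 82 UMIs. Both receptors were thus highest at day 3, with day 14 at 0.528 (0.369 to 0.738) and 0.725 (0.565 to 0.922) of it. Within the Ms4a7 and C1qa cluster, which held 12.4% of the class's UMIs at day 3 and 79.7% at day 14, these ratios were 0.694 for Notch1 (0.392 to 1.24) and 1.08 for Notch2 (0.692 to 1.70), and within the Lyz2 and Cxcl9 cluster 1.70 (0.590 to 4.36) and 0.878 (0.427 to 1.66). None of these 4 intervals leaves out 1. Within the Ccl6 and Pf4 cluster, which held 59.2% of the class's UMIs at day 3, both receptors were lower at day 7, at 0.649 (0.420 to 0.967) and 0.483 (0.320 to 0.706) of day 3. Jag1 was at 9.95 CPM (50 UMIs) at day 3 and 17.0 CPM (24 UMIs) at day 14, while fibroblast markers in this class summed to 473 and 2921 CPM. Their part in the Jag1 values was not tested.

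Of the 4 members compared in this class, Hes1 alone was at least 2-fold higher at day 7 than at day 3, against 5.81% higher and 4.29% lower of 11046 genes. As a mean over cells Hes1 was at 195 CPM at day 3 and 343 CPM at day 7, which is less than 2-fold. None of the 4 passed 2-fold in either direction at day 14, against 8.04% and 9.46%. Immediate early genes summed to 5019, 10955 and 17558 CPM at days 3, 7 and 14 in this class. Their part in the Hes1 values was not tested.

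The higher Hes1 of day 7 was not seen inside the cluster that held most Hes1 UMIs at days 3 and 7. The cluster led by Lyz2 and Cxcl9 had 509 CPM (457 to 565, 351 UMIs) at day 3, 412 CPM (392 to 434, 1507 UMIs) at day 7 and 129 CPM (82.0 to 194, 23 UMIs) at day 14, and the ratio of day 7 to day 3 was 0.809 (0.720 to 0.912). Over the same days this cluster held 13.7%, 41.9% and 12.6% of the UMIs of the class. The cluster led by Ccl6 and Pf4 had 27.9 CPM of Hes1 (83 UMIs) at day 3, when it held 59.2% of the UMIs of the class, and 15.1 CPM (10 UMIs) at day 7. The cluster led by Ms4a7 and C1qa had 57.7, 72.4 and 56.1 CPM, which did not differ beyond counting error. The cluster led by Ifit1 and Cxcl10 went from 16.7 CPM (7 UMIs) to 134 CPM (63 UMIs) between days 3 and 7, a ratio of 8.02 (3.67 to 20.8). Of the smaller clusters, the one led by Pou2f2 and Hes1 had 1037 CPM (62 UMIs in the sum of 24 cells) and 907 CPM (89 UMIs, 47 cells) at these days. Hes1 took no part in forming the clusters, but this cluster carries its name because Hes1 is high there. The one led by Nr4a2 and Vegfa had 901 CPM (84 UMIs, 37 cells) at day 7.

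**Figure D5:**
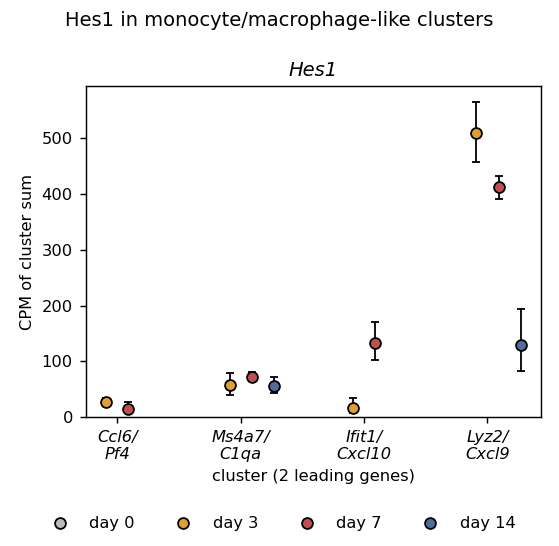
CPM of Hes1 (linear axis from 0) in the 4 largest monocyte/macrophage-like clusters, named by their 2 leading genes, for each day with at least 10 cells in the cluster; bars are 95% Poisson intervals. Of these 4, the Lyz2 and Cxcl9 cluster is highest, at 509, 412 and 129 CPM on days 3, 7 and 14.

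Of the other genes of the pathway, a list of 48 was counted. In fibroblast-like cells at day 14, 42 could be compared with day 0, and 4 were at least 2-fold higher and 2 lower, shares near the 9.13% and 4.57% of all genes, with a median log2 ratio of -0.03 against -0.02. Dlk1, a non-canonical Notch ligand, had no UMI at day 0 and 193 UMIs (22.0 CPM) at day 14. This is at least 16.3 times higher at the floor of 3 UMIs. The lower limit of its counting interval, which uses no floor, was 13.1. Aph1c, a gamma-secretase subunit, and Neurl1b, a ubiquitin ligase of ligand endocytosis, had ratios of 6.83 and 3.92 that rest on 1 and 2 UMIs at day 0. Rbpj, the DNA-binding partner of all 4 receptors, went from 181 CPM (403 UMIs) to 107 CPM (937 UMIs), a ratio of 0.589 (0.523 to 0.663). The lowest ratios were those of Dtx1 at 0.345 (15 UMIs at day 14 and 11 at day 0) and Lfng at 0.475 (30 and 16 UMIs), the last a glycosyltransferase that modifies the receptors.

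At day 7 of the same class 39 were compared, with 2 higher and 1 lower, against 10.7% and 8.84% of all genes. Dlk1 was at least 11.0 times higher at the floor of 3 UMIs, and the lower limit of its counting interval was 8.57. Furin, which cuts the receptors on their way to the surface, had a ratio of 2.48 (1.82 to 3.41) and Fbxw7 one of 1.95. Lfng, Rbpj and Mib2 were lowest at 0.404, 0.511 and 0.545. At day 3, 1 of 38 was higher and 2 were lower, against 9.08% and 12.5%. Furin had a ratio of 2.56 (1.90 to 3.51), Maml1 of 1.71 and Adam10 of 1.57, and Lfng, Dtx4 and Kat2b were lowest at 0.401, 0.482 and 0.529.

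In smooth muscle-like cells 37 were compared between days 14 and 3, with 1 higher and 2 lower, against 5.79% and 10.2% of all genes. Maml3 had a ratio of 2.85 from 13 and 10 UMIs, Dtx3 of 1.89 (1.46 to 2.44) and Ncor1, a corepressor, of 1.51, while Neurl1b was at 0.183 (3 and 36 UMIs) and Adam10 at 0.371 (0.235 to 0.564). In endothelial-like cells at day 7, 9 of 34 were higher and 1 lower than at day 3, against 16.5% and 8.08% of all genes. Psen2 and Dtx3 had ratios of 8.44 and 5.89 that rest on 2 UMIs and 1 UMI at day 3. The ligand gene Jag2 was at least 3.84 times higher at the floor of 3 UMIs (43 UMIs against 0). The lower limit of its counting interval was 2.99. Aph1a was at 0.490 (0.306 to 0.799), and Fbxw7 and Aph1b had ratios of 0.595 and 0.636 whose intervals include 1.

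In monocyte/macrophage-like cells 5 of 43 were higher and 1 lower at day 7, against 5.81% and 4.29% of all genes. The one lower was Rbpj, from 472 CPM (2370 UMIs) at day 3 to 198 CPM (1731 UMIs), a ratio of 0.421 (0.395 to 0.448). Adam10 was at 0.538 and Ncstn at 0.593 of day 3. Nrarp, a feedback inhibitor, had a ratio of 16.7 from 29 UMIs against 1, Jag2 of 2.99 and Maml2 of 2.53 (1.26 to 5.65). At day 14, 4 of 42 were higher and 2 lower, against 8.04% and 9.46%. Maml2 was at 5.70 (2.43 to 14.1), the corepressor gene Tle1 at 4.79 (3.45 to 6.67) and Mfng at 3.08 (1.86 to 5.09), and Tle3, Rfng and Mib2 were lowest at 0.424, 0.446 and 0.501.

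The genes whose levels across classes and days were most like those of each member were taken from 11257 genes over 25 sums of at least 100000 UMIs, as the Pearson correlation of log2(CPM + 10). These sums share libraries and depth, and the values are a description. Among the genes closest to Heyl were Hoxb3os and Ptprd (both r = 0.97), and Hey2 was closest to Tmem47 (0.97), Fam135a (0.95) and Pdgfd (0.94). Jag1 was closest to Uaca (0.96), Wwtr1 and Arhgap29 (both 0.95), and Notch1 to Mindy2 (0.91), Cdk17 and Ppp1r13b (both 0.90). The likeness was weaker for Notch3, closest to Crispld1 (0.87), Fabp3 and Acan (both 0.79), for Notch2, closest to Sesn2 (0.79), Lilra6 (0.78) and Atg3 (0.77), and for Hes1, closest to Cmklr1 (0.74), Camsap2 (0.72) and Nln (0.71). Among the members themselves, Jag1 and Hey2 were closest to each other (0.85), Heyl was closest to Hey2 (0.80) and Notch3 to Heyl (0.50). The highest value with another member was 0.35 for Hes1 (with Jag1), -0.03 for Notch2 (with Heyl) and -0.16 for Notch1 (with Jag1). Notch4, Dll4 and Hey1 had under 200 UMIs and were not compared.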

How the data were processed

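The deposited files are matrices of raw UMI counts per gene and barcode, 1 per library, which the authors made with Cell Ranger; the matrix headers name version 3.0.2, another version than the study's methods, and the reference is given there under a human build name, so no gene coordinates are printed beside the RefSeq promoter windows. Barcodes with under 200 genes or over 20% mitochondrial counts (453) were left out, as were 106 marked by Scrublet scores at a rate of 0.8% per 1000 barcodes. The 4 libraries were clustered together without batch integration (scanpy 1.11.5, 2000 variable genes, 30 principal components, 15 neighbours, Leiden resolution 1) into 35 clusters, named by marker lists. The members, the pathway list and the immediate early genes were left out of the variable genes. A class needed 3 detected markers, and clusters led by cell cycle genes were divided by their neighbours. UMIs were summed per class and library. Levels carry exact Poisson intervals and ratios exact conditional binomial intervals (scipy 1.17.1); a sum of 0 was given a floor of 3 UMIs. Ratios needed 20 UMIs. Of the pathway list, the 3 largest ratios each way are named, and 3 genes most like each member with 200 or more UMIs. Some genes that these rules name are not reported here. Members and lists were chosen with earlier results of these data known. Free RNA was not removed. Alternatives covered clustering per library, resolution 1.5, stricter filters (500 genes, 10% mitochondrial), no doublet removal, mixed sub-clusters or the deepest 5% of cells left out and a mean over cells; those on shared barcodes, cells of at most 40000 UMIs, cell cycle clusters and fibroblast clusters kept out of the class were chosen after seeing the data.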

Additional observations from a re-analysis of the deposited data

Results flagged for a closer look

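Hes1 moved differently between classes from day 3 to day 7, with a ratio of 7.10 in endothelial-like, 4.49 in fibroblast-like, 2.16 in monocyte/macrophage-like and 0.724 in smooth muscle-like cells. From day 3 to day 14 its ratio was 5.25 in fibroblast-like, 0.683 in smooth muscle-like and 0.582 in monocyte/macrophage-like cells. Notch1 from day 3 to day 7 had a ratio of 0.657 in monocyte/macrophage-like and 3.27 in fibroblast-like cells. These differences between classes were not tested, since each day is 1 library. In each comparison at least 1 class had its counting interval above 1 and at least 1 had it below 1. Listed classes on the same side of 1 are not set apart by this.

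Cells that no class name was given to also held members: 172 UMIs of Notch1, 436 of Notch2, 38 of Notch3, 13 of Notch4, 276 of Jag1, 660 of Hes1, 14 of Hey1, 133 of Hey2 and 189 of Heyl. Most Heyl in these cells lay in the cluster led by Wisp2 and Eln, at 75.7 CPM, with 28.1 CPM in the one led by Tnfrsf11b and Dio2.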

How the results depend on the processing

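Leaving out the shallower copies of shared barcodes changed none of the member ratios and levels beyond counting error. Without doublet removal, the smooth muscle-like to fibroblast-like ratio of Notch3 at day 14 was 8.58 (3.73 in the report) and the smooth muscle-like ratio of day 14 to day 3 was 9.14 for Notch3 (4.39). Resolution 1.5 gave 4.38 for Heyl in the last comparison (3.23), and leaving out every shared barcode 2.43. Dll4 in endothelial-like cells at day 7 was at 87.6 CPM without the deepest 5% of cells and 95.3 CPM without every shared barcode (65.3). The mean of each cell's CPM gave 6.45 for Notch1 in endothelial-like against fibroblast-like cells at day 7 (20.2), with or without the shallower copies; 8.51 for Notch3 (8.51 without the copies) and 2.07 for Heyl (2.01) in smooth muscle-like cells, day 14 to day 3; and 8.70 for Hes1 in fibroblast-like cells, day 7 to day 0 (6.01). Hes1 at day 3 to day 0 was 2.11 without mixed sub-clusters and 2.37 as a mean over cells without the copies (1.34). Putting the unnamed fibroblast clusters led by Tnfrsf11b and by Wisp2 into the fibroblast-like class, a choice made after seeing the data, raised Heyl at day 7 to 0.479 of day 0 (0.253) and ended its order against smooth muscle-like cells at that day. The cause of these moves was not tested.

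Some single values turned direction. As a mean over cells, Hey2 at day 3 to day 0 was 1.00 in fibroblast-like cells (0.283) and 1.51 in smooth muscle-like cells (0.494), Heyl in smooth muscle-like cells was 1.01 at both day 3 and day 7 to day 0, Heyl in fibroblast-like cells was 0.543 and 0.721 at days 7 and 14 to day 3, and Jag1 in endothelial-like cells, day 14 to day 3, was 3.27. None of these reversed as a mean over cells once the shallower copies were left out. Jag1 in fibroblast-like cells was 1.13 at day 3 to day 0 and 0.887 at day 14 to day 3 without mixed sub-clusters, and Jag1 in endothelial-like cells, day 14 to day 3, 5.18 without the deepest 5% of cells. Notch1 in smooth muscle-like cells, day 14 to day 7, was 1.22 as a mean over cells, 1.27 as such a mean without the copies and 1.55 without any shared barcode (0.373), and, at day 7 to day 0, 0.779 as a mean over cells without the copies (2.01). Counts of genes past 1.5-fold were 1.45 to 3.27 times those past 2-fold, and with at least 100 UMIs they were 0.0971 to 0.630 of those with at least 20. Leaving out mixed sub-clusters gave no value for endothelial-like cells, nearly all of which lie in one. No paired analysis was possible because each day has 1 library. Depth limits the endothelial-like class at days 0 and 14 and the smooth muscle-like class at day 0.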
